A study of Mus musculus with 12 samples.

Results

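The transcriptome of unstimulated wild-type regulatory T cells (Treg) was described from the 3 libraries of the WT ex vivo group, out of 12 RNA-seq libraries in the series, without a comparison between groups. The members were taken from the sample labels (genotype WT, treatment unstimulated). Each library came from an individual mouse of 6 to 8 weeks on the B6 background. The labels give spleen as the source, while the study's general purification method names both spleen and lymph node. CD4+ T cells were first isolated, and YFP+ cells were then sorted. These mice carry the Foxp3-YFP-Cre allele and no floxed Ikzf1, so YFP and Cre are made where that allele is active. The sort takes cells by that reporter rather than by CD25. The other 9 libraries, which were not compared here, are WT Treg kept for 4 h on plate-bound anti-CD3 and anti-CD28 and Treg of Ikzf1-Treg-cko mice with and without that treatment, at 1 ug/ml each, with 3 libraries in each group. RNA was taken from a bulk population, so fewer cells of a type and less RNA per cell cannot be told apart.

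Treg are CD4+ T cells that restrain other lymphocytes. Their program depends on the forkhead factor Foxp3, which works with partners such as Runx1, Nfat, Gata3, Foxo1 and the Ikaros family of zinc finger proteins, and which holds effector cytokine genes such as Il2 and Il17a low. Treg bind interleukin-2 through a high affinity receptor (Il2ra, Il2rb, Il2rg), remove costimulatory ligands from other cells through Ctla4, and can release Tgfb1, Il10 and Ebi3. In lymphoid organs a resting, recirculating pool that carries Ccr7 and Tcf7 lives beside an activated effector pool that carries Icos, Batf, Irf4 and Il10.

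The libraries held 14966256, 11822714 and 18244906 reads assigned to genes. The gene model Gm10800 alone took 20.5%, 39.8% and 17.7% of all TPM (transcript levels corrected for gene length and scaled to a common total), so Gm10800 and Gm10801 were dropped and the remaining 36220 genes were rescaled to a total of 1000000 in each library. All levels below are these rescaled TPM, which are per length, and ± is the SD over the 3 libraries. The background was read from 1096 olfactory receptor (Olfr) genes, which belong to sensory neurons. Their median was 0.756, 1.64 and 0.795 TPM in libraries 1, 2 and 3, and their 95th percentile, used as the threshold, was 2.29, 4.00 and 1.89 TPM. Library 2 therefore stood apart with the highest background and also with the fewest reads and the largest Gm10800 share, and list counts that moved by more than 1.5 times without it are given in the closing section. A gene was called above background when it passed the threshold of its own library in all 3 libraries, at background when it passed in none, and mixed otherwise.

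By this rule 14795 of 36220 genes (40.8%) were above background, 9994 were mixed and 11431 were at background. Among the 20617 protein-coding genes of the nuclear genome without olfactory and vomeronasal receptors, 11563 (56.1%) were above background, and this share is the one to read each list of genes against. Of the Olfr genes themselves 2 were above, 134 mixed and 960 at background. Vomeronasal receptors, another family of sensory neurons, gave 1 gene above and 292 at background among 302. Of 751 genes in lists of transcription factors, receptors, cytokines, metabolic genes, Treg genes and markers of other cells, 519 were above, 126 mixed and 106 at background.

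The 4 Treg markers were all far above background. The cells were sorted by a Foxp3 reporter and the series holds no other T cell type, so these levels do not measure purity. Ctla4 (chr1:60943844-60972676 on mm9), the inhibitory receptor that competes with Cd28, measured 1198, 1057 and 844 TPM and ranked 24 among 21989 nuclear protein-coding genes. Foxp3 (chrX:7156802-7172369) measured 273, 234 and 187 TPM and ranked 197. Ikzf2 (chr1:69577788-69732534), which encodes Helios, measured 214, 208 and 154 TPM. Il2ra (chr2:11564419-11614818), the CD25 chain, measured 199, 172 and 174 TPM. Library 1 was the highest for each of the 4 genes and library 3 the lowest for all but Il2ra, yet the smallest ratio to the threshold of the same library, for Il2ra in library 2, was 42.9. Ikzf1 (chr11:11585006-11672929), the gene deleted in the knockout groups, measured 164, 155 and 134 TPM.

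**Figure D1:**
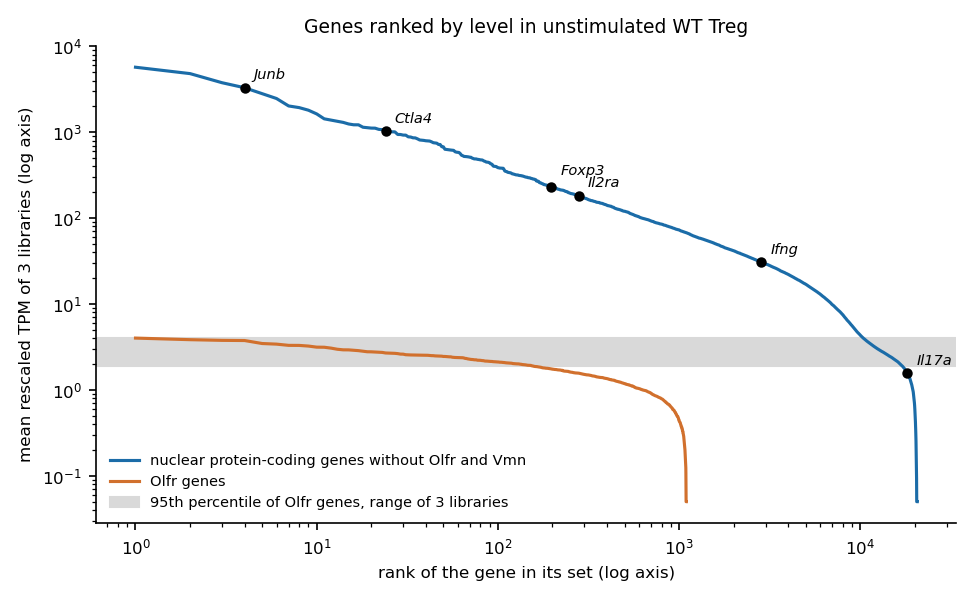
Genes ranked by their mean rescaled TPM over the 3 libraries, both axes on a log scale, with nuclear protein-coding genes in blue, Olfr genes in orange and the range of the 3 thresholds in grey; means under 0.05 are drawn at 0.05. Junb, Ctla4, Foxp3 and Il2ra lie far to the left and above the grey band, Ifng at 30.8 TPM is still clear of it, and Il17a at 1.57 TPM lies under it among the Olfr levels.

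Among the genes kept, the most abundant RNA was not protein-coding. Small RNA genes (the snoRNA, snRNA, miRNA and misc_RNA classes) held 46.9% of the rescaled TPM, nuclear protein-coding genes 42.2% and the mitochondrial genome 2.95%. The 10 highest genes were 7SK, a regulator of transcription elongation, with AC027184.1, RNase_MRP, Mir5105, Snora74a, mt-Co1, AC120136.3, SCARNA21, SNORA14 and Actb. The first of these, 7SK, reached 132593, 117960 and 152942 TPM, and together with AC027184.1 and RNase_MRP it took 29.1%, 25.8% and 35.2% of the rescaled total. Rank among protein-coding genes is given beside TPM for this reason, since the small RNA share moves the TPM of every other gene in a library but not their order.

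Expression among protein-coding genes was concentrated. The 135 highest genes held 25% of their TPM, 925 genes held 50% and 7374 held 90%. Among the 20 highest were Actb, B2m, Eef1a1, Junb, Rplp1, Gm9846, Klf2, Tmsb4x, Eef2, Tnfaip3, Pfn1, Nr4a1, H2-K1, Rpl8, Gm9843, Rpl4, Ccr7, Fosb and Klf6. They mix housekeeping products (actin and its regulators Tmsb4x and Pfn1, translation factors, ribosomal proteins) with MHC class I chains (B2m, H2-K1) and with 5 transcription factors (Junb, Klf2, Nr4a1, Fosb and Klf6). Actb, the highest, measured 5710.5 ± 269 TPM. Tnfaip3, the A20 brake on NF-kB, measured 1633 ± 237 TPM, and its 3 values, 1846, 1675 and 1377 TPM, all exceeded that of Ctla4 in the same library. Eef1a1 and the ribosomal protein genes have many near-identical copies, so their values are uncertain.

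Of 151 listed transcription factors, 122 were above background, 21 mixed and 8 at background, which is 80.8% against the 56.1% of coding genes. Of these factors 12 ranked among the 100 highest coding genes and 51 among the 1000 highest. The 30 factors listed as Foxp3 partners and Treg factors were all above background. Ets1, an ETS factor needed for Foxp3 expression, led them at 477 ± 55.5 TPM, ahead of Foxp3 itself (231 ± 42.96), Ikzf2 (192 ± 33.1), Foxo1 (191 ± 42.3), Hif1a (159.6 ± 27.9) and Gata3 (153 ± 15.2). Foxp3 exceeded Ikzf2 and Foxo1 within each of the 3 libraries although the ranges over libraries overlap, whereas Foxo1 was above Ikzf2 in library 1 and below it in the others.

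All 5 Ikaros family genes were above background, in the order Ikzf2, Ikzf1, Ikzf4, Ikzf3 and Ikzf5. Ikzf2 and Ikzf1 (151 ± 15.6) overlapped in range, with Ikzf2 the higher within each library. Ikzf4, which encodes Eos, measured 52.6 ± 4.46 TPM and did not overlap with Ikzf1. Ikzf3, which encodes Aiolos, followed at 38.3 ± 5.92 TPM and Ikzf5 at 17.4 ± 3.13 TPM. Among the other partners, Runx1 measured 51.9 ± 7.32 and Cbfb, the shared subunit of the Runx complex, 67.7 ± 6.25 TPM. Runx2 was the lowest of the 30 at 7.29 ± 2.08 TPM, and 28.7% of its exon length overlaps another gene on the same strand, so its value is uncertain. The Nfat genes ran from Nfatc3 (118 ± 17.5) through Nfatc1 (97.96 ± 19.9) to Nfatc2 (42.9 ± 7.47).

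Immediate early genes, which are switched on within minutes of a stimulus, were high in cells that had received none in culture. RNA was taken after CD4+ isolation and sorting, and the part of that handling in these levels was not tested. All 18 listed members were above background with a median of 158 TPM. Junb was the highest transcription factor at 3259, 3204 and 3420 TPM. Nr4a1, the Nur77 receptor used as a reporter of T cell receptor signals, measured 1430, 1279 and 1441 TPM. Fosb measured 1121, 1142 and 1122 TPM. These 3 genes were even across libraries, whereas Fos was not, with 719, 1108 and 1385 TPM, lowest in library 1 and highest in library 3. Jund (789 ± 45.9) and Jun (749.5 ± 132) completed the highest AP-1 genes. Egr2 (25.8 ± 3.61) and Egr3 (24.5 ± 2.603), 2 zinc finger factors of the same response, sat far lower, and Egr4 (4.76 ± 1.53) and Fosl1 (6.299 ± 2.12) lay nearest the background.

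Factors of quiescent and recirculating T cells formed the other high group, with 25 of 27 measured genes above background. Klf2, which keeps T cells in circulation through S1pr1, measured 1988, 1931 and 2146 TPM and was the next factor after Junb. Klf6 (1117 ± 58.4), Btg1 (795 ± 70.7), the high mobility group factor Tcf7 (581 ± 49.9) and Ets1 followed. Lef1, the relative of Tcf7, measured 81.9 ± 12.4 TPM, and Bach2 and Satb1 measured 47.0 ± 14.3 and 121 ± 33.4 TPM. Across the Klf family, 10 of 17 genes were above background, and the remaining members had means from 1.92 (Klf17) to 2.53 (Klf14) TPM, with Klf5, Klf8, Klf15 and Klf17 at background in every library. A pair of gene models carry the symbol Zeb1, one mixed and one at background, and neither value should be read as that factor's level.

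The 19 listed NF-kB, STAT and IRF factors were all above background. Rel (226 ± 55.3) was the highest NF-kB subunit, over Nfkb1 (144 ± 24.7), Nfkb2 (124 ± 29.7), Rela (104 ± 19.7) and Relb (43.8 ± 8.94). All 7 Stat genes were above background, with Stat2 (21.95 ± 1.93) the lowest. Stat5b (105 ± 23.1), which carries the interleukin-2 signal to Foxp3, exceeded Stat5a (60.2 ± 16.7) in every library.

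Factors that define helper lineages and effector states split by level, with 22 of 25 above background. Bhlhe40 stood alone at 627 ± 109 TPM. Gata3 and Nfil3 (153 ± 27.1) followed, then Id2 (108 ± 1.302), Batf (62.2 ± 2.298) and Irf4 (55.9 ± 3.06). Bcl6, the follicular factor, measured 23.9 ± 3.14 TPM, and Prdm1, its antagonist, 7.56 ± 2.34 TPM. Tbx21, the Th1 factor, measured 6.71, 8.25 and 4.97 TPM, which is above background in every library but low. Pparg, the factor of fat-resident Treg, stayed at background with 1.91, 2.03 and 1.86 TPM.

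Of 14 measured factors of other blood lineages 8 (57.1%) were above background, a share near the 56.1% of coding genes, and 4 of these, Cebpb (83.6 ± 4.74), Gata1 (10.3 ± 0.606), Cebpa (10.1 ± 1.54) and Irf8 (9.69 ± 1.56), stayed above at the 99th percentile of Olfr genes. Pax5, Nfe2 and Cebpe lay between 3.38 and 4.35 TPM, Gata2 and Tal1 were mixed, and Ebf1, which with Pax5 fixes the B cell fate, was at background. Of 22 factors of non-blood tissues 4 were above, 13 mixed and 5 at background, and none of the 4 (Myog, Pou5f1, Foxa1 and Sox2) remained above at the 99th percentile, while 8 of the 22 were above without library 1 and 11 at the 90th percentile. Transcription factor families ranged widely. All 9 Irf and all 8 E2f genes were above background, as were 31 of 36 Zbtb (86.1%), 234 of 345 Zfp (67.8%), 16 of 25 Ets (64%) and 24 of 47 nuclear receptor genes (51.1%). Lower shares were found for 6 of 17 Tbx (35.3%), 15 of 44 Fox (34.1%), 2 of 6 Gata, 3 of 18 Sox, 1 of 9 Pax and 4 of 39 Hox genes (10.3%).

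**Figure D2:**
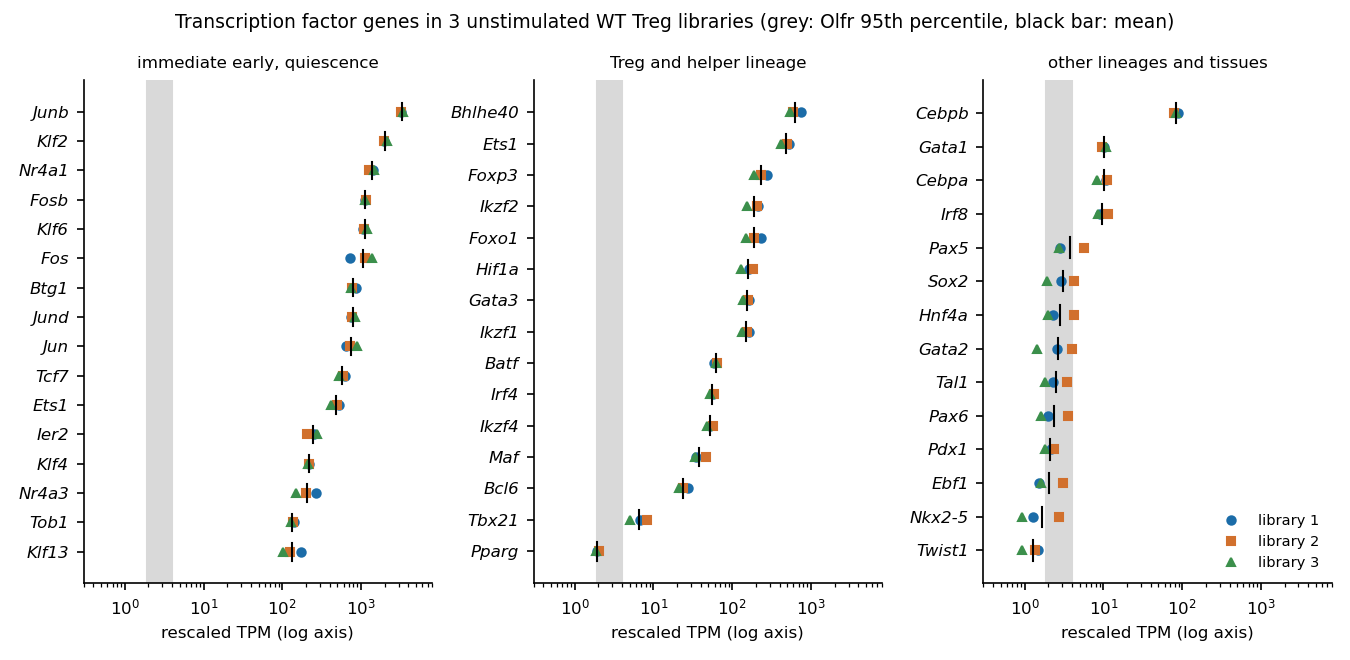
Rescaled TPM of transcription factor genes on a log axis in library 1 (circle), 2 (square) and 3 (triangle), with the mean as a black bar and the range of the 3 Olfr thresholds in grey. The 8 highest immediate early and 8 highest quiescence factors, the ones plotted, sit between 101 and 3420 TPM, Treg and helper factors spread from Bhlhe40 down to Pparg, and factors of other lineages mostly fall on the grey band.

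Of 173 listed receptors and surface molecules, 127 (73.4%) were above background, 22 mixed and 24 at background. The T cell receptor complex was high throughout. Cd3e measured 811, 784 and 779 TPM, Cd3g 516 ± 43.5, Cd3d 209 ± 9.68 and Cd247 79.6 ± 8.58 TPM. Cd4 measured 269.5 ± 24.5 TPM. Cd8a was mixed at 1.57, 2.51 and 2.38 TPM, whereas Cd8b1 was above background in every library at 12.2, 15.2 and 13.3 TPM, so the 2 chains of the CD8 coreceptor did not lie at the same level.

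The interleukin-2 receptor was present in all its chains. Il2rb measured 467 ± 60.3 TPM and the shared chain Il2rg 269 ± 17.5 TPM, with 30.5% of the exon length of Il2rg overlapped by another gene, and Il2ra was the lowest of the 3. Of the 52 cytokine receptor genes 35 were above background, 6 mixed and 11 at background. Il21r (213 ± 32.2), Il4ra (169 ± 49.2), Il6st (128 ± 29.1) and Il6ra (118 ± 15.98) were high. Il7r, which Treg carry less of than other CD4+ cells, measured 43.02 ± 3.52 TPM. Receptors for transforming growth factor beta were led by Tgfbr2 (68.7 ± 13.8) over Tgfbr1 (34.97 ± 0.904). The decoy receptor Il1r2 measured 42.2 ± 1.04 TPM while the signalling receptor Il1r1 stayed at background. Il12rb2 and Il23r, which T cells need to answer the Th1 and Th17 cytokines Il12 and Il23, were both mixed at 2.74 ± 1.63 and 2.98 ± 1.01 TPM, although their shared partner Il12rb1 reached 17.1 ± 2.25 TPM. Receptors known mainly from other lineages were divided, with Il3ra (22.3 ± 3.29) and Csf2ra (7.73 ± 2.83) above background, Csf1r just above it, Epor, Kit, Csf3r and Flt3 mixed, and Il5ra, Csf2rb and Lepr at background.

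Costimulatory receptors were above background in 16 of 17 cases. Cd28 (383 ± 56.5) and Tnfrsf4 (337 ± 26.4), the OX40 receptor, led, followed by Tnfrsf1b (144 ± 18.8), Icos (141 ± 21.02), Tnfrsf18 (131 ± 2.96) and Cd27 (125 ± 12.3). Tnfrsf9 measured 73.3 ± 1.02 TPM. The exception was Cd40, a receptor of antigen presenting cells, which was mixed. Coinhibitors were above background in 14 of 16 cases, led by Ctla4, Cd96 (153 ± 5.35) and Tigit (136 ± 35.1). Pdcd1 (34.3 ± 2.03) and Lag3 (23.2 ± 0.947) were lower, and Havcr2, which encodes Tim-3, was mixed at 2.65 ± 0.692 TPM. Ctla4 exceeded Cd28, with which it shares its ligands, in each of the 3 libraries.

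Homing receptors had a wide range. Ccr7, which brings lymphocytes into the T cell zone, measured 1349, 1033 and 1048 TPM and ranked 18 among coding genes. S1pr1 (479.9 ± 104) and Cxcr4 (476 ± 13.7) followed. Receptors of activated Treg were lower, with Ccr8 at 108 ± 7.24, Cxcr3 at 43.9 ± 7.23, Cxcr5 at 38.7 ± 6.55, Ccr4 at 22.5 ± 1.23 and Ccr6 at 21.3 ± 2.84 TPM. Of the 19 Ccr, Cxcr and related receptor genes 9 were above background, and Ccr1, Ccr3, Cxcr1, Cxcr2 and Cx3cr1, which are used mostly by myeloid cells, were at background. Of 26 integrin genes 20 were above background, led by Itgb7 (246 ± 15.9), Itgb2 (226 ± 17.5) and Itgal (214 ± 29.9). Itgae, the CD103 chain, measured 19.5 ± 3.498 TPM and Itgb8, which activates latent Tgfb1, 10.2 ± 1.62 TPM. Among 16 innate sensors, Tmem173 (91.9 ± 3.34), which encodes STING, and Tlr1 (44.7 ± 4.704) were the highest, and Tlr3, Tlr4, Tlr8, Tlr11 and Tlr13 were at background. The 38 taste receptors of the Tas family gave none above background, 6 mixed and 32 at background.

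Treg signature genes for surface and effector molecules were above background in 31 of 32 cases, Havcr2 being the exception. Il2rb, Folr4 (386 ± 28.8), Tnfrsf4 and Lrrc32 (310.5 ± 89.7), the GARP docking receptor for latent Tgfb1, were the highest. Lrrc32 measured 402, 307 and 223 TPM, highest in library 1 and lowest in library 3 as Foxp3 was. Nt5e, the CD73 ectoenzyme that makes adenosine, measured 125 ± 14.9 TPM and exceeded Entpd1, the CD39 enzyme before it in the same chain (12.6 ± 2.39), in every library. Genes of the resting, central pool were above background in 14 of 14 cases with a median of 123 TPM, and those of the effector pool in 21 of 22 cases with a median of 41.0 TPM. Both programs were thus present in the bulk RNA.

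Cytokine genes were above background less often than the coding genes as a whole, 39 of 113 (34.5%) against 56.1%, with 38 mixed and 36 at background, and none ranked among the 100 highest coding genes. Lymphotoxin beta, Ltb, was the highest at 297 ± 22.6 TPM, and Lta (73.8 ± 4.03) and Tnf (58.7 ± 4.11) of the same locus were lower. Tnfsf8 measured 162 ± 34.7, Tgfb1 145 ± 13.7, Il16 66.5 ± 2.13 and the repair factor Areg 61.9 ± 6.56 TPM. Il10 measured 51.6, 69.4 and 34.5 TPM, highest in library 2, and Ebi3, a subunit of Il35, 29.6 ± 6.43 TPM. Il12a, the other subunit of Il35, was at background with 2.12 ± 0.853 TPM.

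Of the 21 listed T cell cytokines 8 were above background, 7 mixed and 6 at background. Il17a measured 1.44, 2.06 and 1.21 TPM from 12, 12 and 15 reads, under the threshold in every library. Il17f, Il5, Il9 and Il21 were also at background. Il2 measured 0.490, 1.58 and 1.899 TPM, and passed its threshold only in library 3, where that threshold is 1.89 TPM. Il4, Il3, Il22 and Csf2 were mixed. Ifng, the Th1 cytokine, measured 25.4, 38.5 and 28.4 TPM from 219, 231 and 363 reads, at least 9.62 times the threshold in each library, and lay below Lta, Tnf and Il10 in mean level. Il13 passed the threshold in each library at 3.37, 9.18 and 2.59 TPM but missed the 99th percentile of Olfr genes in library 3. The 16 type I interferon genes gave none above background.

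Chemokine and cytotoxic genes were few and uneven. Of 29 measured chemokines 5 were above background (9 at the 90th percentile of Olfr genes), namely Cxcl10 (28.7 ± 2.03), Ccl5 (11.9 ± 5.04), Xcl1 (9.204 ± 2.04), Cxcl2 (7.06 ± 2.23) and Ccl3. Ccl3 measured 2.56, 13.4 and 2.22 TPM and Ccl4 2.34, 20.4 and 1.002 TPM. Gzmb, the serine protease of cytotoxic granules, measured 6.92, 19.4 and 5.59 TPM. All 3 were raised in library 2 alone, from 51, 67 and 137 reads, and no test was possible on a single animal. Nkg7 (29.2 ± 6.42), Fasl (26.4 ± 3.17) and Prf1 (6.72 ± 1.35) were above background, whereas Gzma, Gzmd and Gzme were at background.

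**Figure D3:**
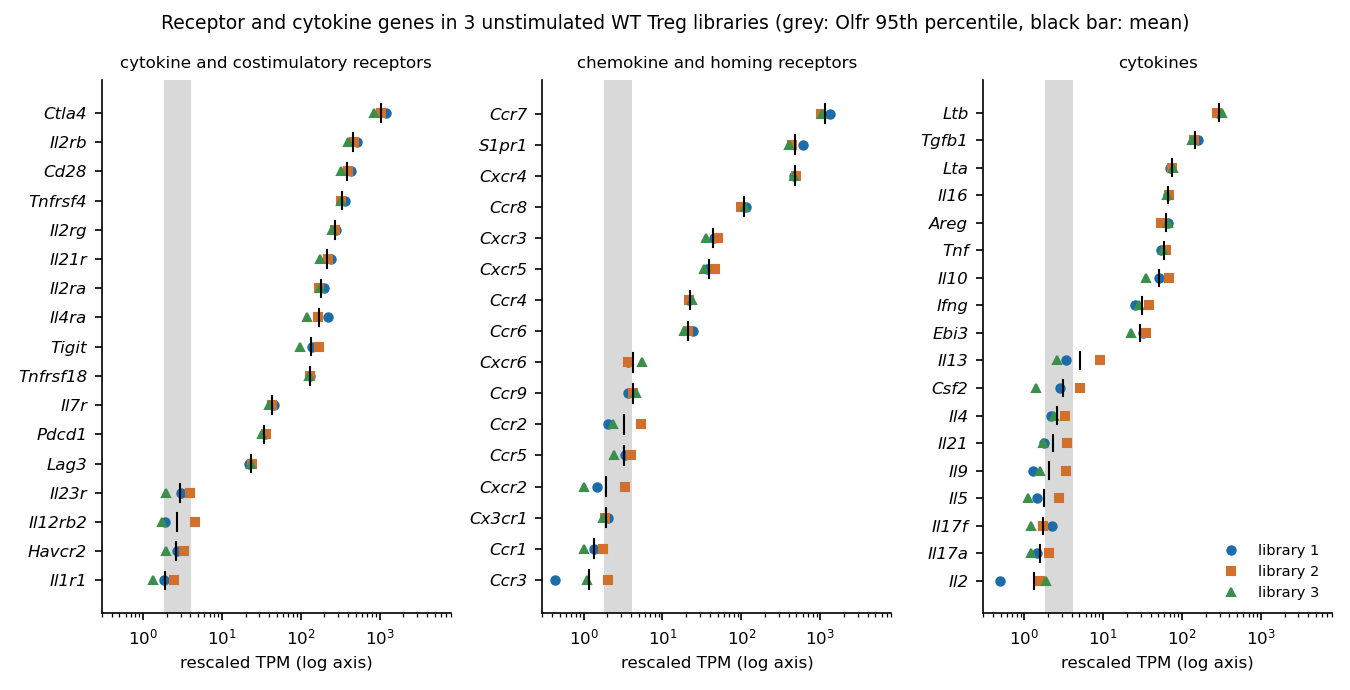
Rescaled TPM of receptor and cytokine genes on a log axis in library 1 (circle), 2 (square) and 3 (triangle), with the mean as a black bar and the range of the 3 Olfr thresholds in grey. Ccr7 and Ctla4 lead, Ifng and Il10 are clear of the grey band, and Il17a, Il5 and Cx3cr1 lie under their thresholds.

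Of 258 metabolic genes 206 (79.8%) were above background, 30 mixed and 22 at background, but only 1 ranked among the 100 highest coding genes and 20 among the 1000 highest. The pathways differed in level and in completeness. The citric acid cycle with pyruvate entry had 31 of 34 genes above background and a median of 21.9 TPM, led by Mdh2 (111 ± 7.096), Cs (96.2 ± 5.08) and Idh3g (75.5 ± 6.79). The 3 at background were Pdk4, Me1 and Pdha2, a testis form of Pdha1 (57.1 ± 7.87). Glycolysis with glucose uptake had 27 of 34 above and a median of 9.65 TPM, led by Pkm2 (239.6 ± 19.1), Aldoa (139.7 ± 3.66), Gpi1 (81.1 ± 4.36) and Ldha (69.9 ± 9.99). Counting only genes above background, the medians were closer, at 20.5 TPM for glycolysis and 24.2 TPM for the citric acid cycle. Slc2a1, the main glucose transporter of T cells, measured 50.3 ± 11.3 TPM and Hk1 exceeded Hk2, at 24.9 ± 3.68 against 7.23 ± 1.69 TPM. Tissue forms such as Pgk2 (at background) and Gapdhs and Ldhc (mixed) were not above background. Gapdh at 45.1 ± 3.78, Pgk1 at 10.7 ± 1.63 and Pgam1, mixed at 3.55 ± 0.627 TPM, have many near-identical pseudogene copies, and reads that fit several places were not counted, so these values are uncertain.

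Respiratory chain genes were expressed nearly throughout. Of the Ndufa to Ndufv family 41 of 42 were above background, of the Uqcr and Sdh genes 12 of 12, of the Atp5 genes 16 of 18 and of the Cox genes 21 of 26. Those of the mitochondrial genome were among the highest RNAs but uneven, with mt-Co1 at 10482, 11023 and 10752 TPM while mt-Co2 was listed at 0 and mt-Co3, mt-Atp6 and mt-Atp8 had means of 0.166, 0.197 and 0.154 TPM. Every cell that respires uses these genes, so their low values are not read as absence.

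Lipid genes were moderate. Fatty acid oxidation and uptake had 22 of 29 genes above background, with Acsl5 (39.7 ± 0.971) and Hadha (35.04 ± 2.85) in the lead. Cpt1a, the gate for fatty acids into mitochondria, measured 26.02 ± 7.18 TPM. The muscle form Cpt1b was at background, with 81.4% of its exon length overlapped by another gene, and Cd36, a fatty acid transporter, was mixed at 2.44 ± 2.19 TPM. Fatty acid synthesis had 10 of 11 genes above, Scd1 being at background while Scd2 measured 36.6 ± 2.19 TPM. Cholesterol synthesis and handling had 23 of 26 measured genes above background, led by the regulators Srebf2 (95.4 ± 20.7) and Insig1 (70.6 ± 13.5) and the exporter Abcg1 (81.9 ± 9.78). The liver enzyme Cyp7a1 was at background.

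Nucleotide and nutrient genes completed the account. All 24 genes of serine, one-carbon and nucleotide synthesis were above background, among them Paics (41.4 ± 4.27), Shmt2 (39.1 ± 5.05) and Impdh1 (38.4 ± 7.54). The pentose phosphate pathway had 8 of 9 above, led by Tkt (41.8 ± 1.54). Nutrient sensing genes were above in 22 of 23 cases, with Txnip (320.2 ± 22.2) the highest, Sesn3 (117 ± 20.03) above Sesn1 (52.5 ± 7.499), and Mtor itself at 17.7 ± 3.703 TPM. Prkaa1 (18.2 ± 1.51) was present and its isoform Prkaa2 at background. For amino acids, the transporter Slc38a2 (253 ± 36.7) and the heavy chain Slc3a2 (205 ± 27.9) with its partner Slc7a5 (60.3 ± 11.8) were high, and Slc7a11 was at background. Arginine, polyamine and tryptophan genes were above in 4 of 13 cases (30.8%), or in 8 at the 90th percentile of Olfr genes. One of the 4, Odc1, the first enzyme of polyamine synthesis, was the highest listed metabolic gene at 391 ± 30.1 TPM, whereas Nos2 and Ido1, used by myeloid cells to deplete amino acids, were mixed. Of 14 enzymes chosen as liver-restricted only Ass1 (31.9 ± 3.44), an enzyme of arginine synthesis, was above background, but the count was 4 without library 2 and 2 without library 3.

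**Figure D4:**
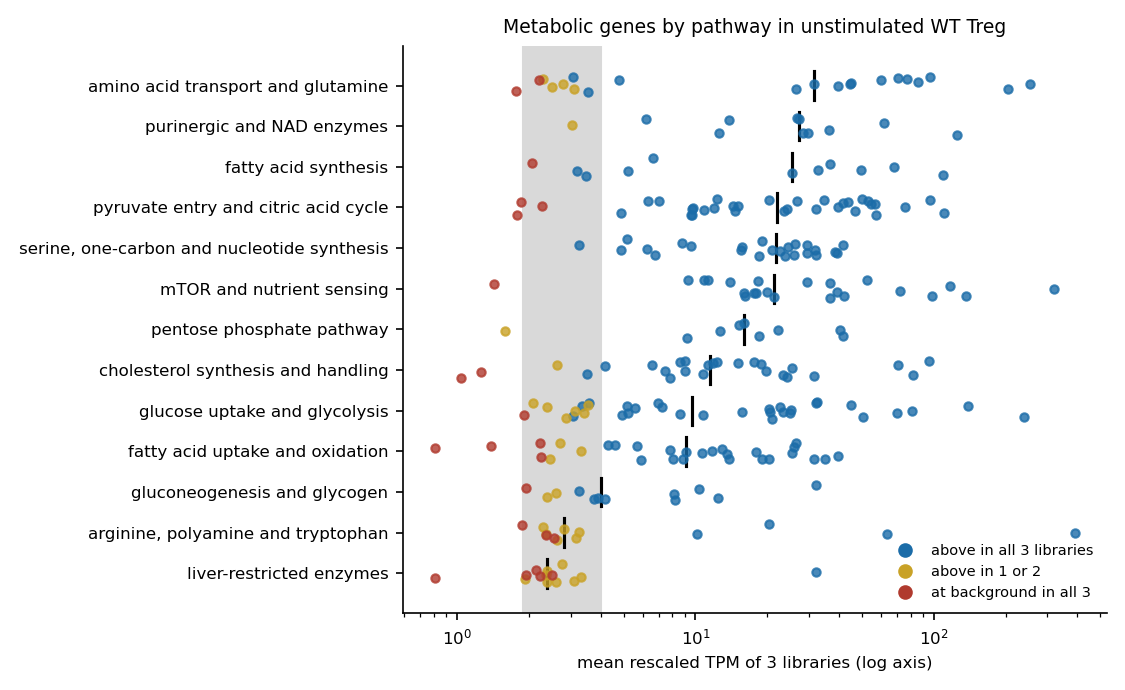
Mean rescaled TPM of each metabolic gene on a log axis, grouped by pathway and ordered by the pathway median (black bar), with genes above background in blue, mixed in yellow and at background in red, and the range of the 3 Olfr thresholds in grey. The liver-restricted enzymes lie on or under the grey band apart from Ass1, while all the nucleotide synthesis genes but Mthfd2l lie to its right.

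Markers of other cell types were low. Of 52 such genes 16 (30.8%) were above background, and their summed level was 223, 267 and 193 TPM in the 3 libraries, of which Pecam1, also carried by resting T cells, gave 94.1, 71.9 and 71.3 TPM. The lists gave 4 of 8 B cell genes above (Cd79b highest at 8.50 ± 1.26), 4 of 7 myeloid genes (Cd68 at 8.78 ± 1.35), 1 of 5 dendritic genes, 1 of 4 NK genes (3 without library 1), 1 of 7 neutrophil genes, 1 of 7 erythroid genes, 1 of 4 platelet genes, 1 of 3 plasma cell genes (2 without library 2), 1 of 2 CD8 T cell genes and 1 of 5 stromal genes (2 without library 3). The defining markers Ms4a1, Lyz2, Siglech, S100a8, Alas2, Ppbp and Col3a1 were at background in every library. Hba-a1 and Hba-a2 were also at background, but reads shared by these near-identical globin copies were not counted, so their values are uncertain. Library 2, which had the highest Ccl3, Ccl4 and Gzmb, also had the highest summed level of the B cell (40.6), myeloid (32.6), NK (18.9) and dendritic (17.3) lists, along with the highest Olfr background, and their part in those values was not tested.

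Spearman correlations between libraries, across genes and so not over replicates, were 0.824 to 0.847 over all genes, 0.938 to 0.962 for genes above background, which had to pass in every library, and 0.321 to 0.351 among Olfr genes. The median SD of log2(TPM + 1) for genes above background was 0.26, and 0.16 without library 3. Of 6938 nuclear protein-coding genes with a mean of at least 10 TPM, the median ratio of the highest to the lowest library was 1.32, and 93 (1.34%) differed by more than 2-fold. Receptor genes above background had a median coefficient of variation of 13.2%, transcription factors 15.2% and cytokines 20.2%. Among the 106 listed genes at background library 2 was the highest in 86, while among the 519 above background library 1 was the highest in 253 and library 3 in 44. Genes linked to the sex of the animal were among those that varied most. Xist measured 1.07, 2.21 and 226 TPM. The Y-linked genes Ddx3y, Kdm5d, Uty and Eif2s3y were near 0 in library 3 alone, with Ddx3y at 69.3, 59.6 and 0.122 TPM. By these RNAs library 3 came from a female and libraries 1 and 2 from males, though the labels give no sex. The part of sex in the spread between libraries was not tested. Gm14950, a transcript on chromosome X, had the next largest ratio of the highest to the lowest library, with 22.2, 49.5 and 0.245 TPM from 183, 284 and 3 reads. Some short gene models, such as Gm17367 with 0, 13 and 4 reads, were at 0 in a library and give no ratio. Just inside the threshold lay Csf1r at 2.41, 4.0003 and 1.97 TPM, a marker of myeloid cells, and just outside lay Il17f at 2.27, 1.71 and 1.21 TPM.

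Promoters of expressed genes were richer in CpG than those of genes at background, a property that the classes did not use. The window ran from 250 bases before to 50 after the most upstream annotated start of 21985 nuclear protein-coding genes, and the CpG ratio is the number of CpG found over that expected from the C and G content. Without olfactory and vomeronasal receptors, the median ratio was 0.74 for 11560 genes above background, 0.38 for 4246 mixed genes and 0.29 for 4807 genes at background, and the median GC content was 59.3%, 53.7% and 50%. Within the lists the metabolic genes above background (median ratio 0.75) and transcription factors above background (0.76) had CpG-rich promoters, whereas receptors (0.33) and cytokines (0.39) above background did not. These values describe genes, which are not replicates, and many gene models start at an estimated position.

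The promoters of 5 genes, rich or poor in CpG, are given as the 250 bases before the start on mm9, read 5′ to 3′ on the gene's strand, with CpG in capitals. Junb (chr8:87502618-87502867, minus strand) and Klf2 (chr8:74842682-74842931, plus strand) are the highest transcription factors, Ctla4 (chr1:60943594-60943843, plus strand) and Foxp3 (chrX:7156552-7156801, plus strand) are Treg markers, and Il17a (chr1:20720736-20720985, plus strand) is a cytokine at background.
Junb: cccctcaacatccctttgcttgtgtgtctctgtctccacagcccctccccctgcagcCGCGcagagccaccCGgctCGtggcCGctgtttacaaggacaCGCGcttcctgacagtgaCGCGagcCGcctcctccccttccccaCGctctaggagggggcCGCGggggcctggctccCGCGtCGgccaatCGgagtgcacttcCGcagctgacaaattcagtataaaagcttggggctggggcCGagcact
Klf2: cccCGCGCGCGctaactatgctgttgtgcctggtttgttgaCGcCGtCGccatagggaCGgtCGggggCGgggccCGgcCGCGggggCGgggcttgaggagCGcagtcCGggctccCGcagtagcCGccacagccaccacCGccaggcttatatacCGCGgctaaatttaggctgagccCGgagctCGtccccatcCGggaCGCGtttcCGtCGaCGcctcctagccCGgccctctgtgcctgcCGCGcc
Ctla4: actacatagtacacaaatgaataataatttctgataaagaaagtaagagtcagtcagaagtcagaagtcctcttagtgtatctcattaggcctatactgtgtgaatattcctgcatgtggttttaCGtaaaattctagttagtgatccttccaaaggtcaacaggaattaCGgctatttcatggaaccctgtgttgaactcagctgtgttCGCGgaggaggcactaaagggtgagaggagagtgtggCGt
Foxp3: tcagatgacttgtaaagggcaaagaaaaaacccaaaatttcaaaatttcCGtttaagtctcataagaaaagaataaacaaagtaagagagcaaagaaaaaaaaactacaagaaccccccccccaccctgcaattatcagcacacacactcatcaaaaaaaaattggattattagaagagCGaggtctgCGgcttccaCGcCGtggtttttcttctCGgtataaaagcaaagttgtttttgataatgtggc
Il17a: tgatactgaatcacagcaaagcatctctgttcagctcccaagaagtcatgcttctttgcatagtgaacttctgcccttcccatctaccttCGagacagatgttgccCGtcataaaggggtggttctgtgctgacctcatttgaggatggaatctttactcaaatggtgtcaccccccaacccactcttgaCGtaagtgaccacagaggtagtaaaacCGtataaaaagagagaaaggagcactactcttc
Junb holds 19 CpG in this stretch and Klf2 32, against 5 in Ctla4, 6 in Foxp3 and 4 in Il17a. Ctla4 and Foxp3 thus resemble Il17a in CpG number although their levels were 1033 and 231 against 1.57 TPM. All 4 Treg markers had a ratio under 0.6 in the 300-base window. The TATA box letters TATAAA, searched on both strands of that window, were found in 13.35% of all promoters, in 4 of 18 immediate early genes (Junb, Fos, Nr4a2 and Myc) and in 9 of 21 T cell cytokine genes, Il17a and Ifng among them. Foxp3 held them too and Ctla4 did not. The cyclic AMP response element TGACGTCA, its own reverse complement, was found in 2.33% of all promoters and in 2 of 18 immediate early genes, Ier2 and Maff. The AP-1 element TGAGTCA, searched on both strands, was found in 4.36% of all promoters, in 0 of 18 immediate early genes and in 1 of 21 T cell cytokine genes, where the cyclic AMP response element was in 0 of 21. A match is a description of letters and not of a bound site.

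**Figure D5:**
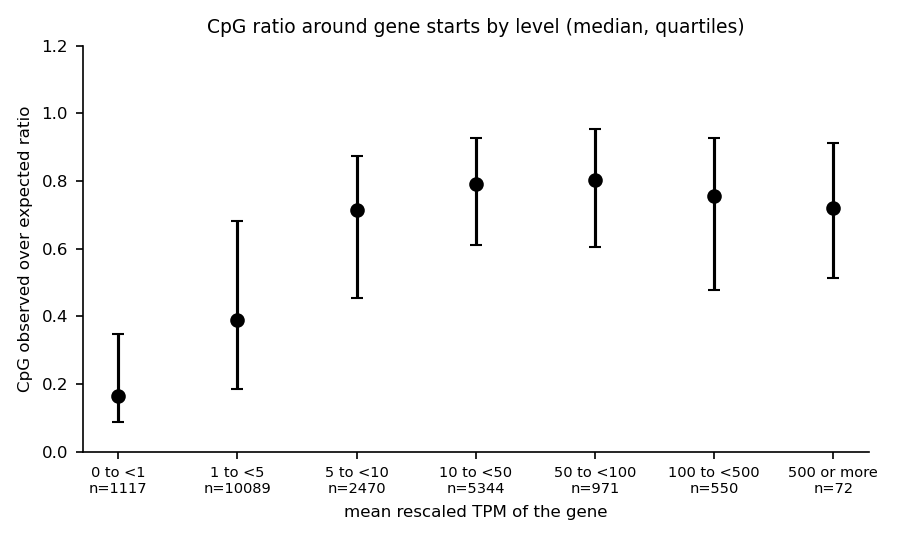
Median CpG ratio around gene starts (point) with its lower and upper quartiles (bars) for nuclear protein-coding genes without olfactory and vomeronasal receptors, binned by mean rescaled TPM, with the number of genes under each bin. The median rises from 0.16 in the lowest bin to 0.80 at 50 to 100 TPM and is 0.72 in the 72 genes at 500 TPM or more.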

How the data were processed

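Per the study's methods and the submitters' processing notes, libraries from RNA depleted of rRNA were sequenced as paired ends of 51 bp, aligned with STAR 2.6.0c to mm9, and counted with HTSeq 0.6.1 on Ensembl exons by strand, leaving out reads that fit several genes or places. The authors deposited the signal of each gene as TPM, and also log2 TPM, to which the value of 1 read had been added. Reads were recovered from the ratio of the deposited log2 and TPM columns, and 99.9977% came out whole within 0.01. A deposited table of the authors' own comparisons was not used. TPM were rescaled to 1000000 without 2 genes, and each gene was classed against the 95th percentile of Olfr genes in its own library, with Python 3.11.15, pandas 2.3.3, numpy 2.4.6 and scipy 1.17.1. No test was run, and the classification was tested on simulated data.

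Gene positions came from the GENCODE annotation of NCBIM37, which is mm9, and covered 99.00% of gene IDs. Named genes were the 4 markers, the highest genes overall and in each list, those nearest the threshold or at background, and the most variable with a mean of 10 TPM or more. The members and lists were chosen with earlier results of these data known. Of the listed symbols 6 had no match (not analysed here). Counting error is smallest for genes with many reads, and the listed genes nearest the threshold rest on 8 to 175 reads a library. The 3 libraries are separate mice, of both sexes by their sex-linked RNAs, and ± measures the spread between them. The alternatives were other percentiles, another background family, a read minimum, other scalings and pseudocounts, and leaving out each library. Some listed genes are counted but not reported here by name.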

Additional observations from a re-analysis of the deposited data

How the results depend on the processing

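The number of genes above background stayed within 1.5 times of 14795 under every alternative run, from 12059 at the 99th percentile of Olfr genes to 21587 when the mean of the libraries was set against the Olfr means, and that of listed genes lay between 468 and 609. With a library left out the counts lay between 15766 and 16889 and between 533 and 555, the highest of each without library 2. At the 99th percentile 51 listed genes were no longer above background, and 11 of these fell to background in all libraries. Counts for single lists moved by more than 1.5 times in 10 of 48 lists at that percentile, among them myeloid markers (4 to 1), B cell markers (4 to 2), the TGF-beta and interferon list (6 to 3) and glycogen genes (9 to 5). They moved in 8 lists at the 90th percentile, 9 with vomeronasal genes, 11 with means, and in 2, 3 and 2 lists without libraries 1, 2 and 3, and every move in these settings was upward. Without library 2 the liver-restricted enzymes rose from 1 to 4, other interleukins and growth factors from 8 to 13 and plasma cell genes from 1 to 2. Without library 1 the factors of non-blood tissues rose from 4 to 8 and NK genes from 1 to 3, and without library 3 the liver-restricted enzymes and the stromal genes each rose from 1 to 2. Factors of non-blood tissues numbered 11 at the 90th percentile, 12 with vomeronasal genes and 13 with means, liver-restricted enzymes 4, 6 and 6, chemokines 9, 9 and 13 against 5, and arginine, polyamine and tryptophan genes 8, 8 and 9 against 4. With means T cell cytokines rose from 8 to 13 and cytotoxic effectors from 5 to 8. Levels were a median of 0.695 times the rescaled value as deposited and 2.37 times over nuclear protein-coding genes alone, but the median rank of the 4 markers stayed between 211 and 237.5. The median SD was 0.35 over all genes, and it was 0.27, 0.21 and 0.16 without libraries 1, 2 and 3. The difference in median CpG ratio between genes above and at background was 0.51, and 0.50 and 0.45 in the alternatives. Genes under about 5 TPM lie within the spread of the background, so a mixed or background call does not show that a gene is silent. No paired analysis was possible because no groups were compared.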
